A study of Mus musculus with 9 samples.

Results

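The genes of cholesterol synthesis and sterol transport were followed in the liver of mice on a normal diet (ND), mice on a high-fat diet (HFD), and mice on the HFD that also received PRF, a polymethoxyflavone-rich fraction from the leaf of Jinkyool (Citrus sunki). The members were a named list of 32 genes, each above 0 in at least 1 liver, of 23183 gene symbols in the tables. They hold 19 synthesis enzymes, 3 genes of sterol sensing, 3 genes of the oxysterol receptor branch, 5 uptake and efflux genes, and 2 esterification genes. All 9 animals were male C57BL/6J mice, labelled as sampled at postnatal day 100, with 1 liver mRNA library per mouse and 3 mice per group. ND mice 6, 7 and 9 ate the normal diet and HFD mice 1, 2 and 3 the high-fat diet, without the fraction. PRF 50 mice 3, 9 and 10 were made obese on the HFD and then took PRF by mouth at 50 mg/kg of body weight per day while the HFD went on. The question of the comparisons was how the diet, and the fraction on top of the diet, went with liver gene expression.

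Cholesterol is built from acetyl-CoA. The mevalonate steps give isoprenoid units, which are joined to farnesyl diphosphate and squalene, and the sterol steps close the rings and trim the product. When sterols in the endoplasmic reticulum are scarce, the membrane-bound transcription factor SREBP-2, the product of Srebf2, is cut and released and switches on the genes of nearly every enzyme of the route, while INSIG proteins hold it back when sterols are plentiful. When sterols are plentiful, oxysterols activate the receptors LXRα (Nr1h3) and LXRβ (Nr1h2), which switch on efflux transporters. The liver is a main site of cholesterol synthesis and the organ that sends cholesterol into bile.

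Every level below is a deposited value for 1 mouse, read as log2(FPKM + 1), where FPKM is the number of fragments scaled to transcript length and library size. A difference is a first group mean minus a second on that scale, with its 95% interval from limma. It understates the change of genes with low levels. The liver label was checked against 5 hepatocyte markers, all above 0 in all 9 libraries. Ttr, which encodes the plasma carrier transthyretin, lay between 11.97 and 12.84, and Hnf4a, a hepatocyte transcription factor, between 6.55 and 7.15. Alb, the albumin gene, is listed at 0 in all 9 livers, so an exact 0 in these tables is not read as absence. Some libraries stood apart over all genes. HFD mouse 2 had a total of 6247560 FPKM, where the other 8 had 527583 to 655459 FPKM. In it 91.3% of the total came from the symbol Rnu6, a small nuclear RNA listed at 0 in the other 8, and without Rnu6 its total was 545429 FPKM. ND mouse 6 was the highest of the 9 mice in 23.6% and the lowest in 18.2% of 10048 genes. These are bulk samples, in which fewer cells of a type and less RNA per cell cannot be told apart.

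In HFD vs. ND, 18 of the 19 synthesis enzymes had a lower mean in the HFD group, as did 51.7% of all genes tested. The 4 uptake and efflux genes that were tested had a higher mean there, as did 48.3% of all genes tested. The differences were 0.44 for Abcg8, 0.36 for Abcg5, 0.12 for Scarb1 and 0.07 for Abca1. Abcg5 and Abcg8 overlap in the annotation, so their values may share reads. Without HFD mouse 1 the Scarb1 mean was lower in HFD, and so was that of Abca1 without ND mouse 6. In PRF 50 vs. HFD, 14 of the 19 enzymes had a higher mean in the PRF 50 group. In every PRF 50 mouse the uptake gene Scarb1 and the efflux gene Abcg1 were above every HFD mouse, as were 10.9% of all genes tested. Abcg1 was tested only through the PRF 50 mice, where it was high. Abca1, Abcg5 and Abcg8 overlapped between these groups, with differences of 0.12, −0.04 and −0.01. Against ND, 17 of the 19 enzymes had a lower mean and all 5 uptake and efflux genes a higher mean in the PRF 50 group. Single mice carried much of the enzyme counts. The 14 became 9 without HFD mouse 3 and 10 without PRF 50 mouse 9, and the 17 became 11 without ND mouse 9 and 13 without PRF 50 mouse 3 or after quantile normalization. The 18 became 15 without HFD mouse 3 and, in a choice made after seeing the data, 11 without both HFD mouse 3 and ND mouse 9. The 3 comparisons share groups, so these directions are not independent of each other.

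None of these differences passed the adjusted threshold. With limma and an adjusted p under 0.05 over all genes tested, 0 of 31 members were called in HFD vs. ND, where 1.33% of all 9978 genes were. The count was 0 of 32 in PRF 50 vs. HFD, against 3.59% of 10084 genes, and 0 of 32 in PRF 50 vs. ND, against 0.458% of 10051 genes. At an unadjusted p under 0.05, 7 members passed in HFD vs. ND, 6 in PRF 50 vs. HFD and 8 in PRF 50 vs. ND, which comes to 13 different members. Abcg1 was not tested in HFD vs. ND because its mean was under 1 FPKM, and it is counted in the other comparisons only through the PRF 50 mice, where it was high. Single mice decided much of these counts. The 7 became 12 without HFD mouse 1, 4 without HFD mouse 3 and 3 without ND mouse 9, the 6 became 3 without HFD mouse 2 or PRF 50 mouse 9, and the 8 became 5 without PRF 50 mouse 10.

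The 7 members past the unadjusted threshold in HFD vs. ND were 1 higher in HFD and 6 lower, where 7.82% of all genes were higher and 7.26% lower. For PRF 50 vs. HFD the 6 were 4 higher and 2 lower, against 8.47% higher and 11.8% lower among all genes. The 8 in PRF 50 vs. ND were 3 higher and 5 lower, against 6.06% and 6.44%. Groups without overlap, in which every mouse of a group lay above every mouse of the other, were counted as a description. There were 2 such members higher and 4 lower in HFD vs. ND, where all genes gave 10.7% and 10%. PRF 50 vs. HFD had 3 higher and 1 lower, against 10.9% and 15.3%, and PRF 50 vs. ND had 4 higher and 2 lower, against 8.19% and 11.8%.

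**Figure D1:**
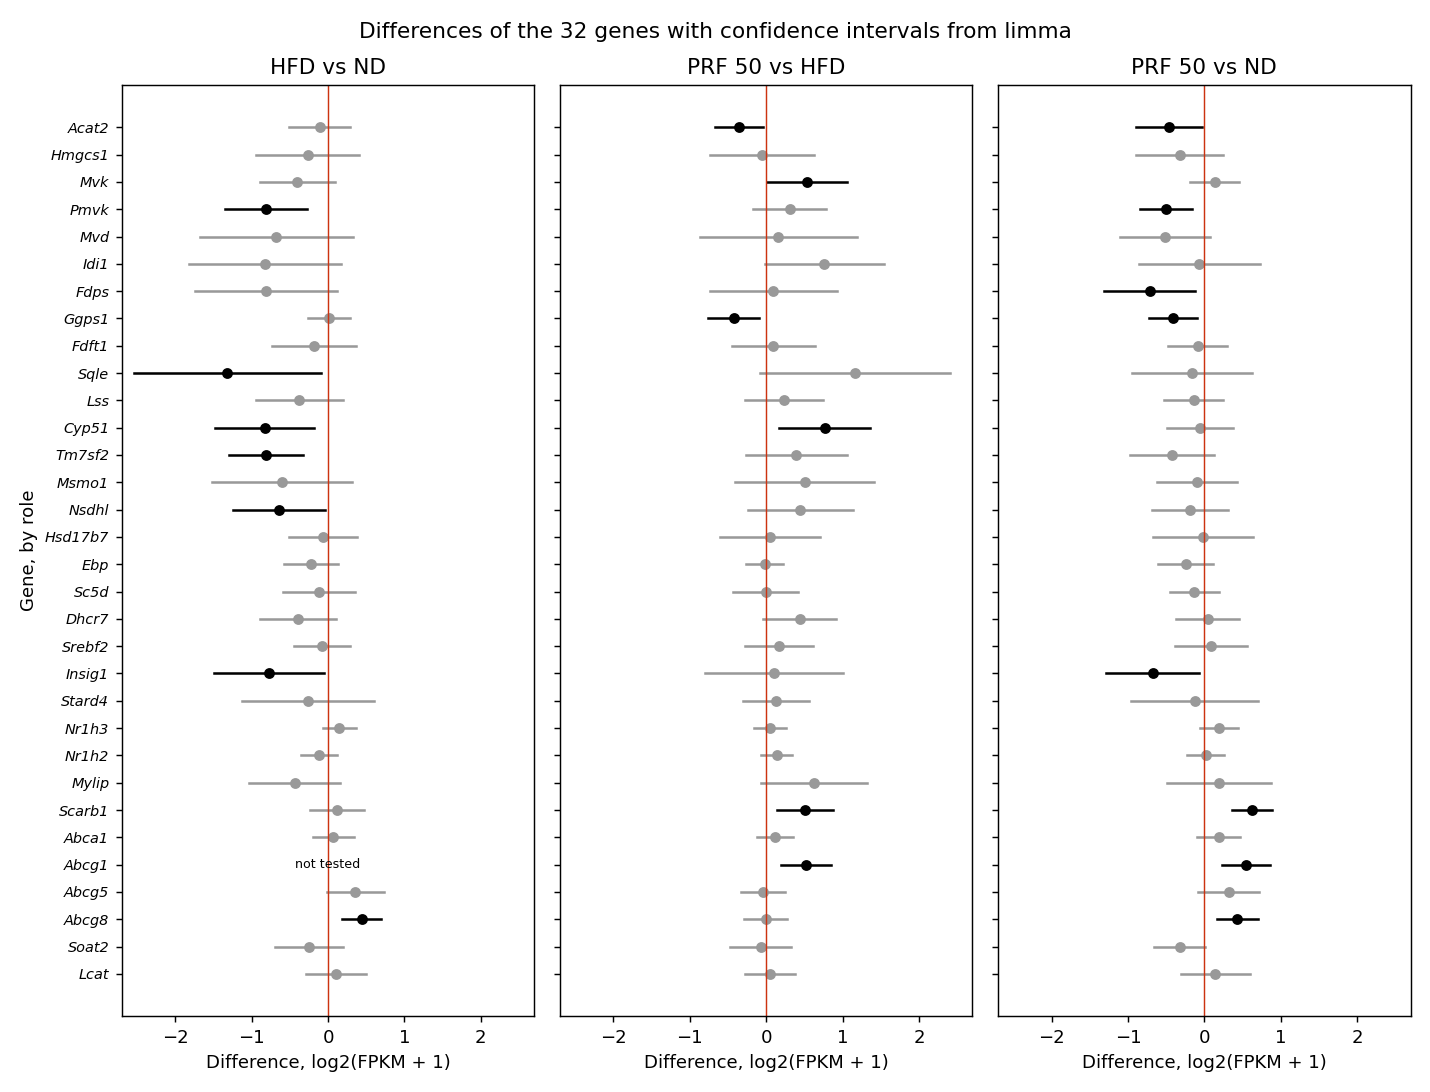
Differences between group means, in log2(FPKM + 1), for the 32 genes in 3 comparisons. Points are limma estimates, lines their 95% intervals, black where the unadjusted p is under 0.05 and grey otherwise. In HFD vs. ND, 18 of the 19 synthesis enzymes, listed at the top, lie left of 0, and no gene in any panel has an adjusted p under 0.05.

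Of the 8 genes of the mevalonate steps, 7 had a lower mean in HFD than in ND, with a median difference of −0.54, where the median of all genes tested was −0.01. It was −0.17 without HFD mouse 3. Pmvk, which encodes phosphomevalonate kinase, stood at 5.06, 4.98 and 5.49 in ND mice 6, 7 and 9, at 4.80, 4.37 and 3.91 in HFD mice 1, 2 and 3, and at 4.60, 4.71 and 4.70 in PRF 50 mice 3, 9 and 10. Every ND mouse was above every mouse of the other groups. The difference was −0.81 in HFD vs. ND, with an interval from −1.35 to −0.28 and an adjusted p of 0.163 from limma. The PRF 50 vs. ND difference was −0.51, with an interval from −0.85 to −0.17 and an adjusted p of 0.21.

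Fdps, which encodes farnesyl diphosphate synthase, was the most abundant gene of these steps, at 7.80, 7.23 and 8.30 in the ND mice, 7.59, 7.24 and 6.09 in the HFD mice, and 6.98, 7.28 and 6.94 in the PRF 50 mice. The groups overlapped, and HFD mouse 3 lay more than 1 unit under its group mates. The difference was −0.81 in HFD vs. ND, with an interval from −1.74 to 0.12, and −0.72 in PRF 50 vs. ND, with an interval from −1.31 to −0.12 and an adjusted p of 0.314. It was 0.09 in PRF 50 vs. HFD, and it took the other sign, −0.35, without HFD mouse 3. The HFD vs. ND difference was −0.37 without HFD mouse 3, and that in PRF 50 vs. ND −0.45 without ND mouse 9.

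Ggps1, whose product makes geranylgeranyl diphosphate for protein prenylation and so stands on a side branch, had another pattern. It stood at 1.74, 1.70 and 1.79 in the ND mice, 1.68, 1.65 and 1.95 in the HFD mice, and 1.14, 1.31 and 1.55 in the PRF 50 mice. All PRF 50 mice were under all other mice, and the ND and HFD mice overlapped. The difference was −0.43 in PRF 50 vs. HFD, with an interval from −0.76 to −0.09 and an adjusted p of 0.156. Against ND it was −0.41, with an adjusted p of 0.275. These are low levels, and values at low levels are less certain than others.

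The other 5 genes of the mevalonate steps were Acat2, Hmgcs1, Mvk, Mvd and Idi1. Hmgcs1, which encodes the cytosolic HMG-CoA synthase, lay between 5.54 and 6.90 over the 9 mice, with a difference of −0.27 in HFD vs. ND and an interval from −0.94 to 0.41. That difference was 0.04 without HFD mouse 3, −0.04 without ND mouse 9, 0.28 without both and −0.46 without HFD mouse 2. Mvk, mevalonate kinase, passed the unadjusted threshold in PRF 50 vs. HFD, with a difference of 0.53 and an adjusted p of 0.242, and these were 0.32 and 0.49 without HFD mouse 3. Acat2, the cytosolic thiolase at the start of the route, passed in PRF 50 vs. HFD, with a difference of −0.35, and in PRF 50 vs. ND, with −0.46. The adjusted p was 0.199 and 0.367. Mvd lay between 1.51 and 3.67 and Idi1 between 4.82 and 7.21, and neither passed in any comparison.

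All 11 genes of the squalene and sterol steps had a lower mean in HFD than in ND, with a median difference of −0.39, and of −0.16 without HFD mouse 3, where the means of Fdft1, Hsd17b7 and Sc5d were higher in HFD. The median in PRF 50 vs. ND was −0.13, and 0.0463 without ND mouse 9. Cyp51, which encodes lanosterol 14-demethylase, stood at 4.83, 4.90 and 5.48 in the ND mice, 4.54, 4.57 and 3.61 in the HFD mice, and 4.86, 5.19 and 4.98 in the PRF 50 mice. Every HFD mouse was under every mouse of the other groups, and the ND and PRF 50 mice overlapped. The difference was −0.83 in HFD vs. ND, with an interval from −1.48 to −0.18 and an adjusted p of 0.23. The PRF 50 mice exceeded the HFD mice by 0.77, with an interval from 0.17 to 1.36 and an adjusted p of 0.151. Between PRF 50 and ND the difference was −0.06, with an interval from −0.49 to 0.37, and it took the other sign without ND mouse 9, without PRF 50 mouse 3, and after quantile normalization. Without HFD mouse 3 the HFD vs. ND difference was −0.51 and the PRF 50 vs. HFD difference 0.45.

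Tm7sf2, whose product is a sterol reductase of the late steps, stood at 6.99, 6.62 and 6.90 in the ND mice, 6.38, 6.13 and 5.56 in the HFD mice, and 5.95, 6.91 and 6.40 in the PRF 50 mice. The HFD mice were all under the ND mice, and the PRF 50 mice spread over the range of both. The difference was −0.81 in HFD vs. ND, with an interval from −1.30 to −0.33 and an adjusted p of 0.135, and −0.42 in PRF 50 vs. ND, with an interval from −0.97 to 0.13. The latter was −0.18 without PRF 50 mouse 3 and −0.67 without PRF 50 mouse 9. Tm7sf2 overlaps the coding gene Vps51 in the annotation. The library kit was a directional one, which keeps the strand, but whether the authors counted by strand is not given in the sources used here, so reads of these neighbours may not have been separated.

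Sqle, squalene epoxidase, had the largest difference of the 19 enzymes in HFD vs. ND, and its values in full were chosen after they were seen. It stood at 4.35, 3.60 and 4.80 in the ND mice, 3.88, 3.21 and 1.69 in the HFD mice, and 4.03, 4.63 and 3.61 in the PRF 50 mice. The ND and HFD mice overlapped, and HFD mouse 3 was far under the rest. The difference was −1.32 in HFD vs. ND, with an interval from −2.54 to −0.10 and an adjusted p of 0.303, and 1.16 in PRF 50 vs. HFD, with an interval from −0.08 to 2.41. Without HFD mouse 3 these were −0.70 and 0.54. Nsdhl, a sterol dehydrogenase that helps remove the methyl groups of lanosterol, passed the unadjusted threshold in HFD vs. ND with a difference of −0.64 and an adjusted p of 0.31, and the difference was −0.34 without HFD mouse 3.

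Sc5d, sterol C5-desaturase, was the most abundant gene of the sterol steps. It stood at 7.44, 7.28 and 7.70 in the ND mice, 7.57, 7.57 and 6.91 in the HFD mice, and 7.41, 7.34 and 7.29 in the PRF 50 mice, and the groups overlapped. The other 6 genes, Fdft1, Lss, Msmo1, Hsd17b7, Ebp and Dhcr7, did not pass the unadjusted threshold in any comparison. Their levels ran from 2.01 for Lss, the cyclase that makes lanosterol, to 7.36 for Msmo1, a methylsterol oxidase. Fdft1 overlaps the coding gene Ctsb, so its values are uncertain in the same way as those of Tm7sf2.

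Over the 19 synthesis enzymes the median difference was −0.40 in HFD vs. ND, 0.24 in PRF 50 vs. HFD and −0.16 in PRF 50 vs. ND, where the medians of all genes tested were −0.01, −0.02 and −0.03. The libraries of a group were far apart in these genes. HFD mouse 3 was the lowest of all 9 mice in 15 of the 19 enzymes, where it was the lowest in 12% of 10048 genes. ND mouse 9 was the highest of the 9 in 13 of the 19, where it was the highest in 10.9% of these genes. The enzymes of HFD mouse 3 lay a median of 0.77 under the mean of HFD mice 1 and 2 (difference −0.77), from −1.86 for Sqle to 0.28 for Ggps1, and the median over all genes was −0.01. Within the PRF 50 group, mouse 9 was the highest in 16 of the 19, where it was the highest of that group in 31.7% of all genes.

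**Figure D2:**
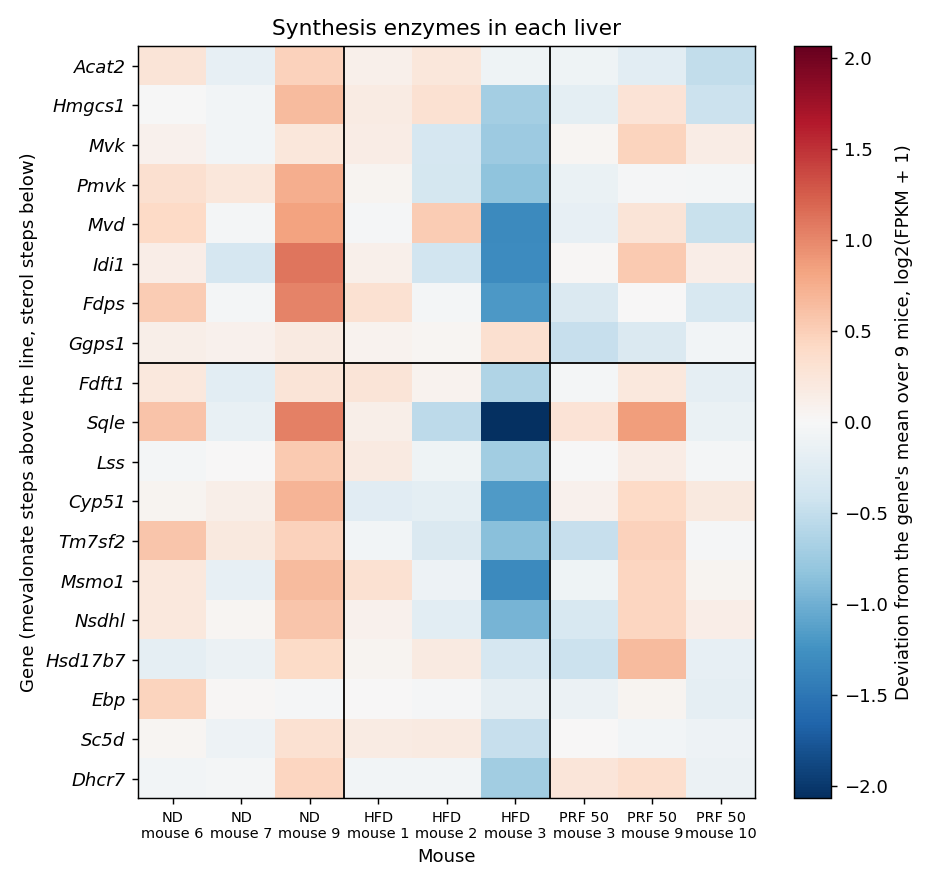
Level of each synthesis enzyme in each liver as its deviation from the gene's mean over the 9 mice, in log2(FPKM + 1), with red above and blue below the mean. HFD mouse 3 is the lowest of the 9 in 15 of the 19 rows, and ND mouse 9 the highest in 13.

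The median SD of these enzymes within a group was 0.47 in HFD, 0.32 in ND and 0.22 in PRF 50, where the median over all genes was 0.12, 0.16 and 0.13. The median difference of the enzymes in HFD vs. ND was −0.16 without HFD mouse 3, −0.48 without ND mouse 6, −0.50 without HFD mouse 2 and −0.64 without HFD mouse 1. With HFD mouse 3 and ND mouse 9 both left out, a choice made after seeing the data, it was −0.04, and 3 members passed the unadjusted threshold, namely Abcg8, Pmvk and Tm7sf2. The median in PRF 50 vs. HFD was −0.02 without HFD mouse 3, 0.15 without PRF 50 mouse 9 and 0.44 without HFD mouse 1. That in PRF 50 vs. ND was −0.01 without ND mouse 9, −0.31 without ND mouse 7, −0.34 without PRF 50 mouse 9 and −0.10 without PRF 50 mouse 10. The hepatocyte markers were compared in the same way. A lower mean in HFD than in ND was found for 4 of the 5, with a median difference of −0.32. The HFD mice were all under the ND mice for Cps1, the first enzyme of the urea cycle, and for Hnf4a. The differences were −0.61 and −0.32, with an adjusted p of 0.191 and 0.31 from limma. Both passed the unadjusted threshold, where 7.26% of all genes were lower and past it. The median difference of the 5 was 0.09 in PRF 50 vs. HFD, where Ttr passed the unadjusted threshold with −0.62 and an adjusted p of 0.0865, and it was −0.23 in PRF 50 vs. ND. Their summed level, most of it Ttr, was 8810, 6553 and 5563 FPKM in the ND mice, 8152, 7188 and 6880 FPKM in the HFD mice, and 5577, 5181 and 5243 FPKM in the PRF 50 mice. The part of these markers in the values of the enzymes was not tested.

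The relative depth of HFD mouse 3 was 1.60 times that of HFD mouse 1, the highest of the 9. PRF 50 mouse 9, whose enzymes were mostly the highest of its group, came next with 1.51 times. The part of depth in the values of the enzymes was not tested.

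The promoter table from RefSeq (GRCm38.p6) holds 300 bases around the start of a gene and matched 25 of the 32 members. It was searched on both strands for a sterol regulatory element (TCACNCCAC), an NF-Y box (CCAAT) and an E-box (CACGTG), and no matches of different motifs overlapped in the members. The NF-Y box, bound by a factor known to work beside SREBP-2, was found in 21 of the 25 members and in 41.1% of 27025 genes, some of which have several entries. It was in 15 of the 16 synthesis enzymes with an entry and in 6 of the other 9 members. The sterol regulatory element was in 1 of the 25 members, Hmgcs1, and in 1.44% of genes, and the E-box in 5 of 25 and in 8.09%. A match is a description of the letters and does not show binding. A missing match means only that these exact letters were not in the bases searched, not that such an element is absent.

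Shown here are the stretches just before the start of Hmgcs1, which has the sterol regulatory element, and of Cyp51 and Tm7sf2, whose ND and HFD mice did not overlap. Each is written 5′ to 3′ on the strand of the gene, with matches in capitals. The Hmgcs1 stretch is chr13:119690104-119690350 on the plus strand, 247 bases with 3 NF-Y boxes on the other strand (ATTGG) and the sterol regulatory element at 137 bases before the start. The Cyp51 stretch is chr5:4104698-4104757 and the Tm7sf2 stretch chr19:6067851-6067910, both on the minus strand, with 60 bases and 1 NF-Y box each.
Hmgcs1: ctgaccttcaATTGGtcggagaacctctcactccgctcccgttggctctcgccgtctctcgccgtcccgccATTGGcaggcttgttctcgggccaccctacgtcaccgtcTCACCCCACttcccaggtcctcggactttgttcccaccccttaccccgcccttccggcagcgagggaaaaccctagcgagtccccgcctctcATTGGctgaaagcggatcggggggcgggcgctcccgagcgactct
Cyp51: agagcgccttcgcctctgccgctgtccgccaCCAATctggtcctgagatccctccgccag
Tm7sf2: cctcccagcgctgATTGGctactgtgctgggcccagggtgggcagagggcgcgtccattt

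Among the genes of sterol sensing, Insig1 was the most abundant. INSIG1 holds the SREBP escort in the endoplasmic reticulum, and its gene is itself a target of SREBP-2. Insig1 stood at 7.18, 6.83 and 7.19 in the ND mice, 6.64, 6.75 and 5.49 in the HFD mice, and 6.95, 6.39 and 5.84 in the PRF 50 mice. All HFD mice were under all ND mice, and the PRF 50 mice overlapped with both. The difference was −0.78 in HFD vs. ND, with an interval from −1.50 to −0.05 and an adjusted p of 0.305, and −0.67 in PRF 50 vs. ND, with an interval from −1.28 to −0.06 and an adjusted p of 0.354. These became −0.37 without HFD mouse 3 and −0.40 without PRF 50 mouse 10. Between PRF 50 and HFD it was 0.10, with an interval from −0.81 to 1.01, and −0.30 without HFD mouse 3.

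Srebf2 itself stood at 2.80, 3.13 and 3.31 in the ND mice, 3.13, 3.10 and 2.78 in the HFD mice, and 3.09, 3.56 and 2.86 in the PRF 50 mice. The groups overlapped, and the lowest adjusted p of the 3 comparisons was 0.677. Stard4, a cytosolic sterol carrier, lay between 3.84 and 5.44, with its highest value in ND mouse 9, and passed in no comparison.

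The oxysterol receptor genes are Nr1h3 and Nr1h2. Nr1h3 stood at 5.60, 5.49 and 5.56 in the ND mice, 5.70, 5.73 and 5.67 in the HFD mice, and 5.88, 5.69 and 5.67 in the PRF 50 mice. The ND mice were under all others, but the difference was 0.15 in HFD vs. ND, with an interval from −0.07 to 0.36, and 0.19 in PRF 50 vs. ND, with an interval from −0.06 to 0.44. The latter was 0.12 without PRF 50 mouse 3. Nr1h2 lay between 3.93 and 4.23. Nr1h3 overlaps the coding gene Acp2, so its values are uncertain in the same way as those of Tm7sf2.

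Mylip encodes a ubiquitin ligase that marks lipoprotein receptors for degradation and is a target of the oxysterol receptors. It stood at 1.62, 1.95 and 2.44 in the ND mice, 1.12, 1.64 and 1.92 in the HFD mice, and 1.74, 2.06 and 2.78 in the PRF 50 mice. The groups overlapped in every comparison, and the lowest adjusted p was 0.296, in PRF 50 vs. HFD, where the difference was 0.63 with an interval from −0.07 to 1.32. It was 0.41 without HFD mouse 1 and 0.34 without PRF 50 mouse 10.

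Of the 5 uptake and efflux genes, Abcg8 passed the unadjusted threshold in HFD vs. ND. Scarb1 and Abcg1 passed it in PRF 50 vs. HFD, and Abcg8, Scarb1 and Abcg1 in PRF 50 vs. ND. All were higher in the first group. Over all genes, 7.82%, 8.47% and 6.06% were higher and past it, in the same order. Where PRF 50 was compared, Abcg1 was tested only through its level in that group. The median difference of the 5 genes was 0.24 in HFD vs. ND, over the 4 tested, and 0.43 in PRF 50 vs. ND, and it was 0.12 in PRF 50 vs. HFD. Some alternatives also tested Abcg1, and their HFD vs. ND medians are over all 5 genes, not the 4 above. These were 0.12 without HFD mouse 1, 0.13 without ND mouse 6 and 0.12 with genes of any level tested. The part of the left-out mouse in these moves was not separated from that of adding Abcg1. The PRF 50 vs. HFD median was 0.0677 without PRF 50 mouse 3, 0.188 without PRF 50 mouse 10 and 0.183 without HFD mouse 3. Abcg8 encodes a partner of the pair of half-transporters that moves sterols from the hepatocyte into bile. It stood at 4.92, 4.80 and 4.90 in the ND mice, 5.46, 5.17 and 5.31 in the HFD mice, and 5.44, 5.11 and 5.37 in the PRF 50 mice. All ND mice were under all mice on the HFD, with or without PRF.

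The Abcg8 difference was 0.44 in HFD vs. ND, with an interval from 0.19 to 0.69 and an adjusted p of 0.12, and 0.43 in PRF 50 vs. ND, with an interval from 0.16 to 0.71 and an adjusted p of 0.183. Between PRF 50 and HFD it was −0.01, with an interval from −0.29 to 0.27. Its partner Abcg5 ran from 4.99 to 5.56 in the ND mice, from 5.44 to 5.74 in the HFD mice, and from 5.35 to 5.68 with PRF. The Abcg5 difference was 0.36 in HFD vs. ND, with an interval from −0.01 to 0.73, and 0.32 in PRF 50 vs. ND, with an interval from −0.08 to 0.71. They were 0.23 and 0.19 without ND mouse 7, and the latter was 0.48 without ND mouse 6.

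These genes lie head to head on chromosome 17 and their annotated spans overlap. Their values may share reads and so may not be independent, which was not tested. Between the start of Abcg5 on the minus strand and a start of Abcg8 on the plus strand lie 109 bases, chr17:84683012-84683120, with none of the searched motifs. An NF-Y box ends just at the start of Abcg5, and it is counted for both genes. The stretch shown, chr17:84683007-84683120 on the plus strand, holds that box, in capitals, and the bases that the pair shares. Abcg8 has a further box 175 bases before its start.
Abcg5-Abcg8: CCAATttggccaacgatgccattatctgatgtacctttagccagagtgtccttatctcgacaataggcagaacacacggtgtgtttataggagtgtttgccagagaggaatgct

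Scarb1 encodes SR-BI, the receptor through which hepatocytes take up cholesterol from HDL. It stood at 5.65, 5.67 and 5.54 in the ND mice, 6.09, 5.56 and 5.57 in the HFD mice, and 6.37, 6.27 and 6.10 in the PRF 50 mice. All PRF 50 mice were above all other mice, the HFD mouse 1 value of 6.09 being just under the lowest of them. The difference was 0.63 in PRF 50 vs. ND, with an interval from 0.36 to 0.89 and an adjusted p of 0.0706, the lowest of any member. Over the alternatives that adjusted p ran from 0.0494, after quantile normalization, to 0.231, without PRF 50 mouse 3.

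The Scarb1 difference in PRF 50 vs. HFD was 0.51, with an interval from 0.13 to 0.88 and an adjusted p of 0.135. Without HFD mouse 1 it was 0.68, with an adjusted p of 0.0394, the lowest over the alternatives, and the highest was 0.327, without HFD mouse 2. In HFD vs. ND it was 0.12, with an interval from −0.24 to 0.48. It was −0.06 without HFD mouse 1, 0.21 without HFD mouse 2, 0.20 without HFD mouse 3 and 0.08 without ND mouse 9.

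Abcg1, which passes cholesterol to HDL and is much used in macrophages, was given in full after its values were seen. It stood at 0.80, 1.03 and 1.02 in the ND mice, 0.79, 1.16 and 0.99 in the HFD mice, and 1.66, 1.34 and 1.50 in the PRF 50 mice. Every PRF 50 mouse was above every other mouse. The mean was 1.84 FPKM with PRF, 0.982 FPKM in HFD and 0.94 FPKM in ND, so Abcg1 reached the 1 FPKM needed for a test only through the group where it was high, and its p-values depend on that. The difference was 0.52 in PRF 50 vs. HFD, with an interval from 0.19 to 0.85 and an adjusted p of 0.0977, and 0.55 in PRF 50 vs. ND, with an interval from 0.23 to 0.86 and an adjusted p of 0.155. With genes of any level tested, the adjusted p was 0.139 and 0.217. Abca1, which loads cholesterol onto apolipoprotein A-I, lay between 3.80 and 4.27 and passed in no comparison.

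**Figure D3:**
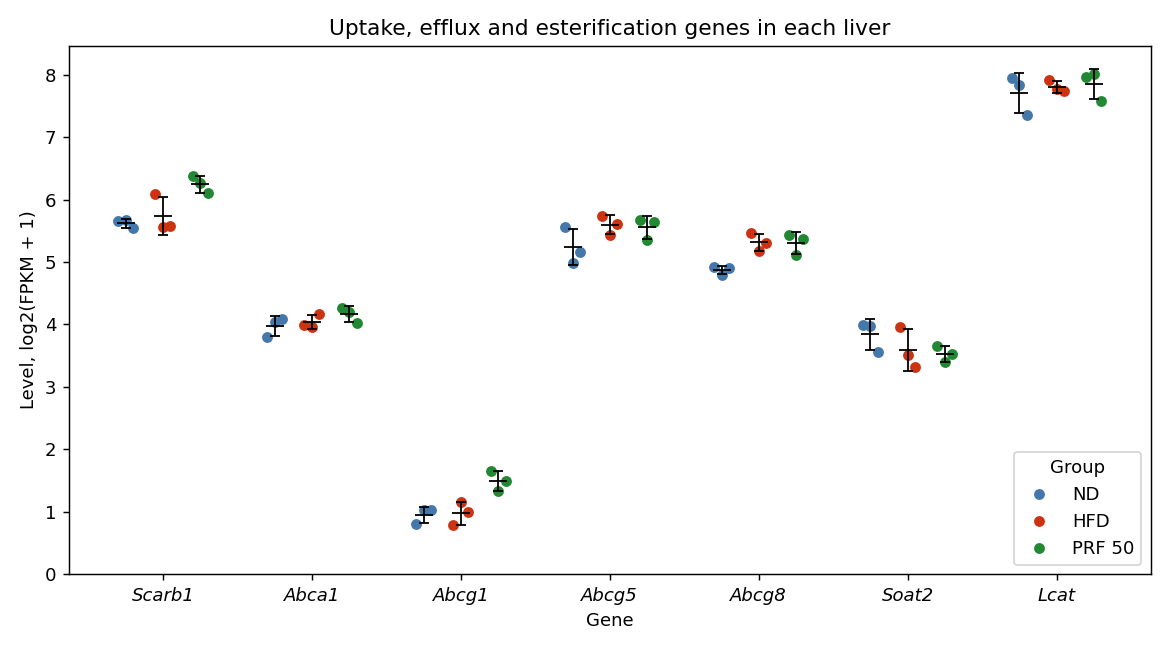
Levels of the uptake, efflux and esterification genes, in log2(FPKM + 1), with 1 point per mouse, a black bar at the group mean and its SD over 3 mice. The ND mice are the lowest for Abcg8, and the PRF 50 mice lie above all others for Scarb1 and Abcg1.

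Markers of Kupffer cells and macrophages moved with the PRF 50 group. All 8 of 8 were above 0, with Cd5l the most abundant. Their summed level was 46.7, 89.7 and 122 FPKM in the ND mice, 57.5, 96.7 and 103 FPKM in the HFD mice, and 345, 202 and 238 FPKM in the PRF 50 mice. With limma, 7 of the 8 had an adjusted p under 0.05 in PRF 50 vs. HFD, all higher in PRF 50, where 3.59% of all genes had one. In PRF 50 vs. ND all 8 were also higher and past the unadjusted threshold, where 6.06% of all genes were. But 0 of the 8 had an adjusted p under 0.05, and 0.458% of all genes had one. Their adjusted p ran from 0.0602 for Timd4 to 0.216 for Marco. Between HFD and ND 0 of the 8 passed either threshold. Their part in the values of Abcg1, Scarb1 and Nr1h3 was not tested.

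In HFD vs. ND, 7.82% of all genes were higher and 7.26% lower at the unadjusted threshold. Of the markers of stellate cells and of sinusoidal endothelium, 1 each passed it there, namely Col1a1, higher, and Kdr, lower. Those of stellate cells, the collagen-forming cells of the liver, had a higher mean in HFD than in ND for 4 of 4, with a median difference of 0.32. Col1a1, a collagen gene, was higher in every HFD mouse than in every ND or PRF 50 mouse, by 0.77 against ND with an adjusted p of 0.0798, and with a PRF 50 vs. HFD difference of −0.46 and an adjusted p of 0.162. It was tested only through its HFD level, since its mean was under 1 FPKM in the other groups. The summed level of this list, mostly Dcn, was 57.3, 74.3 and 95.0 FPKM in the ND mice, 80.5, 99.1 and 77.2 FPKM in the HFD mice, and 73.3, 90.3 and 123 FPKM in the PRF 50 mice. Those of sinusoidal endothelium had a lower mean in HFD for 3 of 4, with a median difference of −0.59, and Kdr passed the unadjusted threshold with −0.84 and an adjusted p of 0.27. Their sum, mostly Clec4g, was 35.3, 47.7 and 60.2 FPKM in the ND mice, 13.6, 32.4 and 46.2 FPKM in the HFD mice, and 35.2, 35.8 and 54.6 FPKM in the PRF 50 mice.

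Of 3 adipocyte markers, Plin1 is listed at 0 in all 9 livers, and Adipoq is above 0 only in HFD mice 2 and 3, at 0.35 and 0.14. Cfd, the most abundant, stood at 0.73, 1.01 and 1.37 in the ND mice, 0.66, 2.86 and 3.85 in the HFD mice, and 0.28, 0.69 and 0 in the PRF 50 mice. The groups overlapped, and HFD mice 2 and 3 were the highest. The Cfd difference was −2.14 in PRF 50 vs. HFD, past the unadjusted threshold with an adjusted p of 0.155, and it was tested there only through its HFD level. The part of these lists in the values of the members was not tested.

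The esterification genes passed no threshold in any comparison. Soat2, which esterifies cholesterol inside the hepatocyte, stood at 4.00, 3.98 and 3.56 in the ND mice, 3.97, 3.51 and 3.31 in the HFD mice, and 3.65, 3.39 and 3.53 in the PRF 50 mice. Lcat, whose product esterifies cholesterol on HDL in plasma, stood at 7.95, 7.83 and 7.35 in the ND mice, 7.92, 7.77 and 7.74 in the HFD mice, and 7.97, 8.02 and 7.58 in the PRF 50 mice. The groups overlapped for both genes in every comparison. The Soat2 difference was −0.32 in PRF 50 vs. ND, with an interval from −0.66 to 0.0151 and an adjusted p of 0.414, the lowest of the 2 genes. In HFD vs. ND it was −0.25, with an interval from −0.69 to 0.19, and it became −0.11 without HFD mouse 3, −0.43 without HFD mouse 1 and −0.39 without ND mouse 9. The Lcat differences lay between 0.0464 and 0.14.

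Around the members, a list of 46 related genes held several that passed the adjusted threshold, on the whole table and with limma. In HFD vs. ND 42 were tested and 2 were called, 1 higher and 1 lower. Of the 42 tested in PRF 50 vs. HFD, 6 were called, 1 higher and 5 lower, among them Cyp46a1, which was tested only through its level in HFD. For PRF 50 vs. ND, 40 were tested and 0 called, against 1.33%, 3.59% and 0.458% of all genes in the same order. At an unadjusted p under 0.05, 11 of the 42 passed in HFD vs. ND, 5 higher and 6 lower, where 7.82% of all genes were higher and 7.26% lower. It was 10 of the 42 in PRF 50 vs. HFD, 4 higher and 6 lower, against 8.47% and 11.8%, and 4 of the 40 in PRF 50 vs. ND, 1 higher and 3 lower, against 6.06% and 6.44%.

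Acat1, the mitochondrial thiolase, works in ketone body metabolism and has a cytosolic counterpart at the start of the cholesterol route. It stood at 6.94, 6.97 and 7.06 in the ND mice, 7.74, 7.69 and 7.67 in the HFD mice, and 6.72, 6.86 and 7.01 in the PRF 50 mice. It was higher in HFD than in ND by 0.72, with an interval from 0.48 to 0.96 and an adjusted p of 0.0234. With PRF it fell by 0.84 against HFD, with an adjusted p of 0.015. The call in HFD vs. ND ended without HFD mouse 2, HFD mouse 3 or ND mouse 7, with an adjusted p of 0.113, 0.101 and 0.107. The call in PRF 50 vs. HFD ended without HFD mouse 2, HFD mouse 3 or PRF 50 mouse 3, with 0.0625, 0.0562 and 0.052.

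In Acat2, the cytosolic counterpart, the HFD and ND mice overlapped. The difference between the 2 genes was not tested.

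Cyp7b1, which hydroxylates oxysterols on the alternative route to bile acids, stood at 6.73, 6.75 and 6.51 in the ND mice, 5.34, 5.65 and 5.45 in the HFD mice, and 6.84, 6.18 and 7.23 in the PRF 50 mice. All HFD mice were under all others. The difference was −1.19 in HFD vs. ND, with an interval from −1.47 to −0.90 and an adjusted p of 0.00731, and 1.27 in PRF 50 vs. HFD, with an interval from 0.69 to 1.86 and an adjusted p of 0.0414. The HFD vs. ND call held when any single mouse was left out, and its adjusted p was 0.0521 without both HFD mouse 3 and ND mouse 9. The call in PRF 50 vs. HFD ended without any of the mice but PRF 50 mouse 9, with an adjusted p up to 0.132, without HFD mouse 3. Cyp46a1, a sterol 24-hydroxylase, fell by 1.01 in PRF 50 vs. HFD, with an adjusted p of 0.0229, at levels of no more than 1.71. Its mean was 1.90 FPKM in HFD and 0.438 FPKM with PRF, so it was tested here only through the group where it was high. With genes of any level tested, the adjusted p was 0.044. That call ended without HFD mouse 3, PRF 50 mouse 3 or PRF 50 mouse 10, with 0.0606, 0.052 and 0.0501, and without HFD mouse 2 its mean was under 1 FPKM and it was not tested.

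Lipa, the lysosomal acid lipase that frees cholesterol from its esters, fell by 0.57 in PRF 50 vs. HFD, with an adjusted p of 0.0442, and leaving out any mouse of the 2 groups ended the call, with an adjusted p between 0.0658 and 0.152. The calls of Cyp7b1 and Lipa in PRF 50 vs. HFD were also lost when genes of any level were tested, and that of Lipa after quantile normalization. In PRF 50 vs. ND the smallest p-value of the list belonged to Acss2, an acetyl-CoA synthetase, with a difference of −0.94 and an adjusted p of 0.24, and the difference was −0.60 without ND mouse 9. In HFD vs. ND the Acss2 difference was −1.02, with an adjusted p of 0.19.

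**Figure D4:**
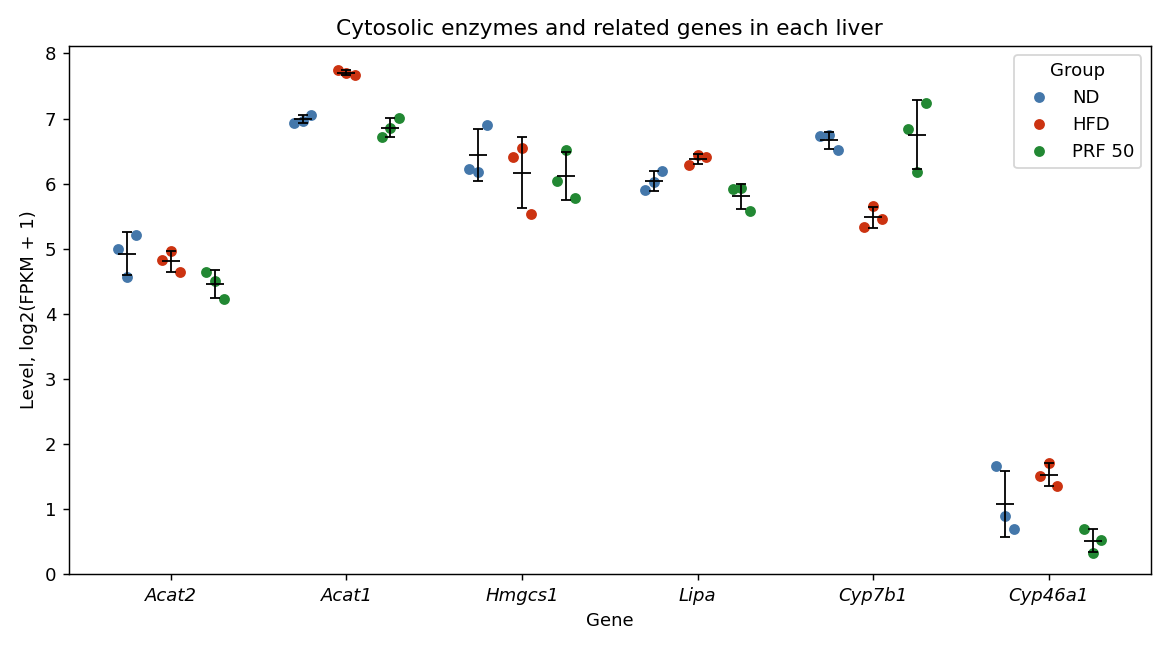
Levels of the cytosolic enzymes Acat2 and Hmgcs1 beside 4 related genes, in log2(FPKM + 1), with 1 point per mouse, a black bar at the group mean and its SD over 3 mice. The HFD mice lie above all others for Acat1 and Lipa and under all others for Cyp7b1.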

How the data were processed

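Liver mRNA of 9 male C57BL/6J mice, 3 each of ND, HFD and PRF 50 by the labels, was sequenced with 1 library per mouse. The submitters' processing notes name TopHat and mm10. The authors deposited 1 log2 value per gene symbol and mouse, made from FPKM and normalized between samples, and taken as log2(FPKM + 1), with the 1 inferred because the smallest value is 0. No table of read numbers was analysed here, which leaves the counting error of a value unknown. Relative depths, from the steps of low values, lay between 0.963 and 1.60 times that of HFD mouse 1. No pair of libraries shared more than 0.129% of compared values exactly.

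Groups were compared by limma 3.58.1, run under R 4.3.3, as a two-sided test (lmFit, then eBayes with a trend) on the 6 mice of each comparison. Genes averaging 1 FPKM or more were tested. Every adjusted p is by the Benjamini-Hochberg method over all genes tested, and a gene was called under 0.05. The members and lists were chosen with earlier results of these data known, so lists are described by counts and medians, with no test. Named with the value of every mouse were members past the adjusted threshold and, per role, the 2 with the smallest unadjusted p and the most abundant. Related genes were named where called, plus the 2 with the smallest p per comparison. The alternatives were all 9 mice in 1 fit, each mouse left out, quantile normalization, scaling by medians of ratios, eBayes without the trend, 0.1 in place of 1 before the logarithm, and a floor of 10 FPKM or none. The procedure was tested on simulated data in which each gene varied independently. Genes that shift together in a mouse were not simulated, and no result above rests on that run. Positions, overlaps and promoter sequences came from RefSeq (GRCm38.p6). Promoter entries were not found for Fdft1, Stard4, Scarb1, Soat2, Sqle, Abcg1 and Fdps. Some related genes that the naming rule selected are counted but not reported here by name.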

Additional observations from a re-analysis of the deposited data

How the results depend on the processing

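No member was called by limma in HFD vs. ND under any alternative run. The count of 0 in PRF 50 vs. HFD became 1 (Scarb1) without HFD mouse 1, a range of 0 to 1 over the left-out mice, and in PRF 50 vs. ND it became 1 (Scarb1) after quantile normalization. At an unadjusted p under 0.05, the 7 members in HFD vs. ND became 3 to 12 over the left-out mice, 4 with no minimum level, and 3 with HFD mouse 3 and ND mouse 9 both left out, the alternative chosen after seeing the data. The 6 in PRF 50 vs. HFD became 3 to 9 over the left-out mice and 3 at a minimum of 10 FPKM, and the 8 in PRF 50 vs. ND became 5 to 9. The median difference of the synthesis enzymes in HFD vs. ND ran from −0.64 to −0.16 over the left-out mice and was −0.0369 with both mice left out. The same median ran from −0.02 to 0.44 in PRF 50 vs. HFD and in PRF 50 vs. ND from −0.34 to −0.01. The medians of the mevalonate and sterol step genes and the counts of enzymes by direction were recomputed by a choice made after seeing the data. The median of the mevalonate genes ran from −0.72 to −0.17 in HFD vs. ND, was −0.81 at a minimum of 10 FPKM and −0.0446 with both mice left out, and ran from −0.34 to 0.34 in PRF 50 vs. HFD. That of the sterol step genes was −0.00802 in HFD vs. ND with both mice left out. The count of enzymes with a lower mean in HFD than in ND, 18, ran from 15 to 19 over the left-out mice and was 11 with both left out. That of a higher mean in PRF 50 than in HFD, 14, ran from 9 to 17, and that of a lower mean in PRF 50 than in ND, 17, from 11 to 18. Over the left-out mice the uptake and efflux median ran from 0.12 to 0.32 in HFD vs. ND. That range mixes gene sets, since Abcg1 was also tested without HFD mouse 1 or ND mouse 6. With Abcg1 untested it was 0.19 without ND mouse 7 and 0.32 without HFD mouse 2. The median ran from 0.0677 to 0.19 in PRF 50 vs. HFD and from 0.37 to 0.53 in PRF 50 vs. ND. At a minimum of 10 FPKM, which leaves out Abcg1, it was 0.0569 in PRF 50 vs. HFD.

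Some differences of single genes changed sign, and for these the cause was not tested. Over the left-out mice in HFD vs. ND, Hmgcs1 ran from −0.46 to 0.0442, Ggps1 from −0.0765 to 0.0702, Sc5d from −0.23 to 0.0935, Srebf2 from −0.22 to 0.0353, Scarb1 from −0.0553 to 0.21 and Lcat from −0.0819 to 0.22. With HFD mouse 3 and ND mouse 9 both left out, Hmgcs1 was 0.28, Ggps1 −0.0523, Sc5d 0.21, Srebf2 0.15 and Lcat −0.0454. Over the left-out mice in PRF 50 vs. HFD, Hmgcs1 ran from −0.37 to 0.14, Fdps from −0.35 to 0.40 and Sc5d from −0.22 to 0.11. Srebf2 ran from −0.0293 to 0.32, Insig1 from −0.30 to 0.38 and Nr1h3 from −0.0239 to 0.0824. Abcg8 ran from −0.0753 to 0.0929, Soat2 from −0.22 to 0.11 and Lcat from −0.0341 to 0.18. After quantile normalization Hmgcs1 was 0.0619, Sc5d 0.14 and Abcg8 0.0810, and after median-of-ratios scaling Sc5d was 0.00186 and Abcg8 0.000437. Over the left-out mice in PRF 50 vs. ND, Cyp51 ran from −0.18 to 0.14, Srebf2 from −0.11 to 0.25, Mylip from −0.10 to 0.42 and Lcat from −0.0354 to 0.28, and after quantile normalization Cyp51 was 0.0181.

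Of the alternatives for single genes, 43 changed sign, 38 lost a call, 4 gained one and 794 did neither. No paired analysis was made, because the labels do not match mice of different groups with each other. Read counts were not used here, and genes with low levels, such as Abcg1 and Ggps1, are the least certain.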
